A study of Mus musculus with 24 samples.

Results

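The 9 genes described here, Mc2r, Nr5a1, Star, Cyp11a1, Hsd3b1, Cyp21a1, Cyp11b1, Cyp11b2 and Akr1b7, encode the hormone receptor, the transcription factor, the cholesterol carrier and the enzymes of the steroid-producing adrenal cortex. They are 9 of the 56941 genes counted in the kidney RNA of a mouse study of myocardial infarction (MI). The set was chosen by name with the values of these same kidneys in view, because several of the genes weighed heavily on the first principal components and stood far above the rest in a few kidneys. Their levels are therefore given as a description, with no test between groups. Of the 9 genes, 8 had a count in at least 1 kidney, and only Akr1b7 passed the filter on low counts. The other 8 genes failed it because too few kidneys held enough counts.

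Kidneys came from male C57BL/6J wild-type mice aged 8 to 11 weeks at surgery. MI was produced by tying off the left anterior descending (LAD) coronary artery for good, and kidneys were taken 5d or 28d post-MI. Sham-operated wild-type mice, in which the artery was not tied, were sampled 5d after the operation. They are the only controls of either time, so that the 28d kidneys also differ from sham in time since surgery. The 3′ ends of mRNA were sequenced with unique molecular identifiers (MACE), and the counts of 22 kidneys could be assigned, of which 8 belonged to the sham group, 8 to the 5d post-MI group and 6 to the 28d post-MI group. Each sample was labelled as a separate kidney, so that tests over them measure the spread between mice.

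In the adrenal cortex, the pituitary hormone ACTH acts on the receptor Mc2r, and Nr5a1 (steroidogenic factor 1) switches on the genes of steroid synthesis. Star carries cholesterol into mitochondria, Cyp11a1 cuts its side chain, and Hsd3b1 and Cyp21a1 convert the product further, after which Cyp11b1 makes corticosterone and Cyp11b2, in the outermost zone, makes aldosterone. The kidney is known as a target of these hormones, through the receptors Nr3c1 and Nr3c2, rather than as their main source. The adrenal gland lies at the upper pole of the kidney, embedded in fat, and holds an inner medulla of chromaffin cells, which make adrenaline and noradrenaline.

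A pair of promoters is shown because, of the 3 genes of the set with a promoter in the table used, these differed most in their counts outside the 3 highest kidneys: Hsd3b1 was at 0 in nearly all other kidneys and Akr1b7 was counted in each of them. The sequences are bases before the transcript start (GRCm38.p6), chr3:98859795-98860044 on the minus strand for Hsd3b1 and chr6:34412112-34412333 on the plus strand for Akr1b7. The Hsd3b1 stretch ends just before the RefSeq start. The Akr1b7 stretch was cut at a transcript start of GENCODE M21 that lies earlier, so that it ends short of the RefSeq start. Capitals mark the letters AAGGTCA, searched on both strands as a word that Nr5a1 can bind.
Hsd3b1 promoter: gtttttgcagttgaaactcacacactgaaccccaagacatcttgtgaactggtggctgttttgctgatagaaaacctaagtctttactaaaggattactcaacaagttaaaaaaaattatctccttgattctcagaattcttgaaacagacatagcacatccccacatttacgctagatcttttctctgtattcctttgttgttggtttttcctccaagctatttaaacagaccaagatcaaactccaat
Akr1b7 promoter: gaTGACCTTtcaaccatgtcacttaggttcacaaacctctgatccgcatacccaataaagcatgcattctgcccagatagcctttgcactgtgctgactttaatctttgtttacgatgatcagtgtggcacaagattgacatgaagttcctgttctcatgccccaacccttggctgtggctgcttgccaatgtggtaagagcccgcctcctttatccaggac
The Akr1b7 stretch holds 1 match, on its minus strand and starting 220 bases before that GENCODE start, and the Hsd3b1 stretch holds none. Among 32851 RefSeq windows of 300 bases around mouse transcript starts, 4.72% hold the word on either strand. Of the 9 genes, 3 had a window in the table (Hsd3b1, Akr1b7 and Cyp11a1).

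The summed level of the 9 genes was high in 3 of the 22 kidneys, sham replicate 2, sham replicate 6 and 5d post-MI replicate 5, and low in the other 19. Cyp11b2 had no part in this, and Nr5a1 and Mc2r had few counts in 5d post-MI replicate 5. Summed over the set, CPM (counts scaled to a common library size, with TMM factors) were 1053 in sham replicate 2, 831 in sham replicate 6 and 100.2 in 5d post-MI replicate 5. In the other 19 kidneys the sum was between 5.69 and 10.5 CPM. None of the 6 kidneys at 28d post-MI was among the high ones. As these are bulk samples, more steroid-producing cells and more of this RNA per cell cannot be told apart.

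**Figure D1:**
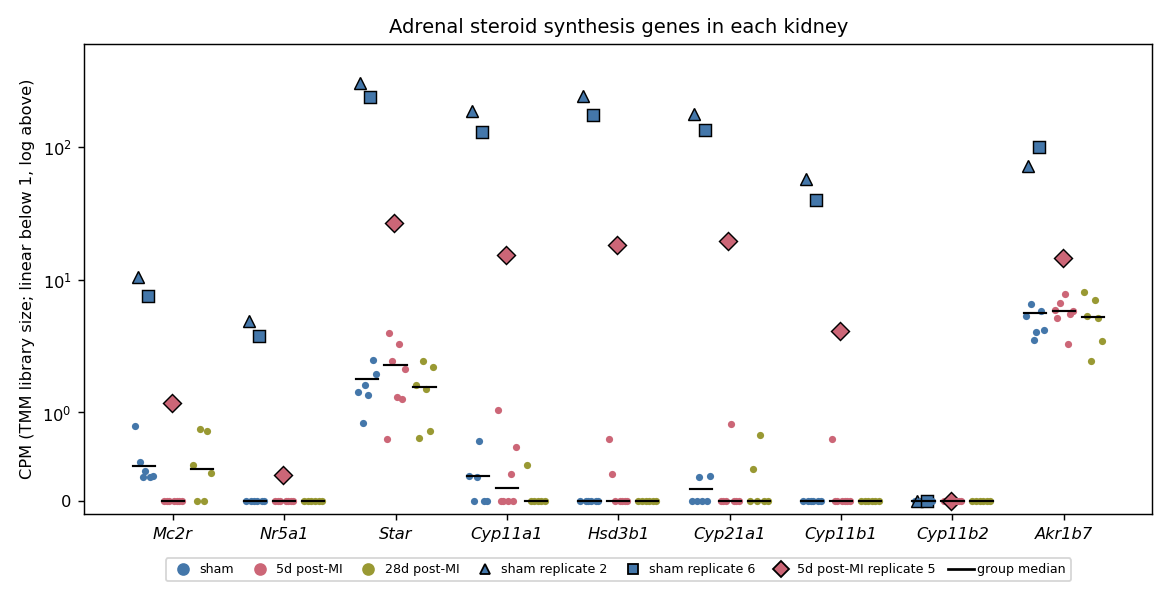
CPM of each of the 9 genes (x axis) in every kidney, coloured by group, with black bars at the group medians; the y axis is linear below 1 CPM and logarithmic above. Sham replicates 2 and 6 stand highest in each gene that was counted, followed by 5d post-MI replicate 5, and Cyp11b2 is at 0 throughout.

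The receptor Mc2r had 28 counts in sham replicate 2, 20 in sham replicate 6 and 4 in 5d post-MI replicate 5. In the other 19 kidneys it had between 0 and 3 counts, so that 5d post-MI replicate 5 was barely above them. By group, Mc2r was at 0.270 to 10.5 CPM in sham kidneys (median 0.390), 0 to 1.18 CPM at 5d post-MI (median 0) and 0 to 0.813 CPM at 28d post-MI (median 0.358). Nr5a1 (chr2:38692656-38714542, minus strand, GRCm38) had 13, 10 and 1 counts in the same 3 kidneys. It had no count in the other 19 kidneys, and a count of 0 allows up to 3 counts, or between 0.792 and 1.32 CPM of the total depending on the kidney. The single count of Nr5a1 in 5d post-MI replicate 5 lies below that limit.

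Star had the most counts of the 9 genes in each of the 3 high kidneys, with 806 counts in sham replicate 2, 634 in sham replicate 6 and 91 in 5d post-MI replicate 5. In sham kidneys it ranged from 0.884 to 303 CPM with a median of 1.78. At 5d post-MI it ranged from 0.698 to 26.7 CPM with a median of 2.295. At 28d post-MI it ranged from 0.716 to 2.44 CPM with a median of 1.55. The groups overlapped, and Star was counted in all 22 kidneys, at 2 to 13 counts outside the 3 high ones. The gene lies at chr8:25806555-25815982 on the plus strand (GRCm38).

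Cyp11a1 (chr9:58006411-58027023, plus strand, GRCm38), which carries out the first step of steroid synthesis, had 495 counts in sham replicate 2, 342 in sham replicate 6 and 52 in 5d post-MI replicate 5. It had 0 to 3 counts in the other 19 kidneys and was counted in 7 of them. Its median was 0.277 CPM in sham kidneys, 0.151 CPM at 5d post-MI and 0 CPM at 28d post-MI. The highest values in those groups were 186, 15.3 and 0.402 CPM. The 3 high kidneys held 98.8% of all Cyp11a1 counts.

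Hsd3b1 (chr3:98852194-98859794, minus strand, GRCm38), the 3β-hydroxysteroid dehydrogenase of adrenal and gonad, had 644, 460 and 62 counts in sham replicate 2, sham replicate 6 and 5d post-MI replicate 5. Of the other 19 kidneys, only 2 had a count, at most 2 counts each, and both were at 5d post-MI. The median was 0 CPM in all 3 groups, with a highest value of 242 CPM in sham kidneys, 18.2 CPM at 5d post-MI and 0 CPM at 28d post-MI. The close copies of Hsd3b1 that the kidney expresses did not follow it. Summed over 7 such genes, they stood at 632 and 643 CPM in sham replicates 2 and 6 and at 790 CPM in 5d post-MI replicate 5, inside the range of 594 to 1029 CPM of the other 19 kidneys. Reads that fit several copies could have been split or dropped by the authors' counting.

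Cyp21a1 (chr17:34801348-34804561, minus strand, GRCm38), the 21-hydroxylase, had 474, 355 and 67 counts in the 3 high kidneys in the same order. It had 0 to 2 counts in the other 19. Its highest values were 178 CPM in sham kidneys, 19.7 CPM at 5d post-MI and 0.748 CPM at 28d post-MI, beside medians of 0.135, 0 and 0 CPM. The neighbouring pseudogene Cyp21a2-ps had no count in any kidney. The 3 high kidneys held 99.2% of all Cyp21a1 counts.

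Of the last-step enzymes, Cyp11b1 (chr15:74834125-74841643, minus strand, GRCm38) had 152, 106 and 14 counts in the 3 high kidneys. Outside them it was counted in 1 kidney only, at 2 counts, which was at 5d post-MI. Its maximum was thus 57.1 CPM in sham kidneys, 4.11 CPM at 5d post-MI and 0 CPM at 28d post-MI. Cyp11b2 (chr15:74851010-74856318, minus strand, GRCm38), the aldosterone synthase, had 0 counts in all 22 kidneys. In sham replicate 2 this allows up to 1.15 CPM, in sham replicate 6 up to 1.14 CPM and in 5d post-MI replicate 5 up to 0.887 CPM. Cyp11b1 and Cyp11b2 are close copies, and reads that fit both could have been dropped or assigned to either.

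Akr1b7, an aldose reductase-like enzyme that clears an aldehyde left by cholesterol side-chain cleavage, behaved differently at its lower end. It was counted in every kidney, with 6 to 21 counts outside the 3 high ones. It had 191 counts in sham replicate 2, 265 in sham replicate 6 and 50 in 5d post-MI replicate 5. In sham kidneys it ranged from 3.51 to 100.5 CPM (median 5.59), at 5d post-MI from 3.31 to 14.7 CPM (median 5.87) and at 28d post-MI from 2.44 to 8.05 CPM (median 5.27). The medians lay close together while the maxima did not. The gene lies at chr6:34412334-34423142 on the plus strand (GRCm38), beside Akr1b3, Akr1b8 and Akr1b10, whose reads may in part be shared. In edgeR's fit across all 12780 tested genes, the log2 fold change of Akr1b7 was −1.78 (SE 0.76) at 5d post-MI against sham and −2.18 (SE 0.90) at 28d post-MI against sham. Without the 3 high kidneys these values were 0.22 (SE 0.24) and 0.11 (SE 0.25), so that the direction turned.

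The same dependence held for the mean log2 CPM over the 9 genes. This mean was 1.39 ± 2.39 in sham kidneys (SD, n = 8), 0.44 ± 0.90 at 5d post-MI (SD, n = 8) and 0.07 ± 0.08 at 28d post-MI (SD, n = 6). The difference of group means was thus −0.95 at 5d and −1.32 at 28d post-MI against sham, less than the SD among sham kidneys in both cases. The medians of the groups were 0.10, 0.14 and 0.05. Without the 3 high kidneys the differences of means were 0.02 and −0.03. Single kidneys stood at 5.40 (sham replicate 2), 5.13 (sham replicate 6) and 2.65 (5d post-MI replicate 5), and the other 19 between −0.04 and 0.30. Leaving out sham replicate 2 alone brought the differences to −0.38 at 5d and −0.74 at 28d post-MI.

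Because MACE reads 1 end of each molecule, counts are not divided by gene length. Within the 3 high kidneys the make-up of the set was similar for most genes. The set held 2803 counts in sham replicate 2, 2192 in sham replicate 6 and 341 in 5d post-MI replicate 5. Star made up 28.8% of them in sham replicate 2 (Wilson 95% interval 27.1 to 30.5%), 28.9% in sham replicate 6 (27.1 to 30.9%) and 26.7% in 5d post-MI replicate 5 (22.3 to 31.6%). Hsd3b1 made up 22.98%, 20.99% and 18.2% in the same order, with overlapping intervals of 21.5 to 24.6%, 19.3 to 22.7% and 14.5 to 22.6%. Cyp11a1 made up 17.7%, 15.6% and 15.3%, and Cyp21a1 16.9%, 16.2% and 19.7%, each with overlapping intervals. The share of Akr1b7 was lower in sham replicate 2, at 6.81% (5.94 to 7.81%), than in sham replicate 6, at 12.1% (10.8 to 13.5%), and in 5d post-MI replicate 5, at 14.7% (11.3 to 18.8%). These intervals cover counting error only. Akr1b7 also stood at 2.44 to 8.05 CPM in the other 19 kidneys, a larger part of its 14.7 CPM in 5d post-MI replicate 5 than of its 71.8 and 100.5 CPM in sham replicates 2 and 6, and the shares were not corrected for that level.

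**Figure D2:**
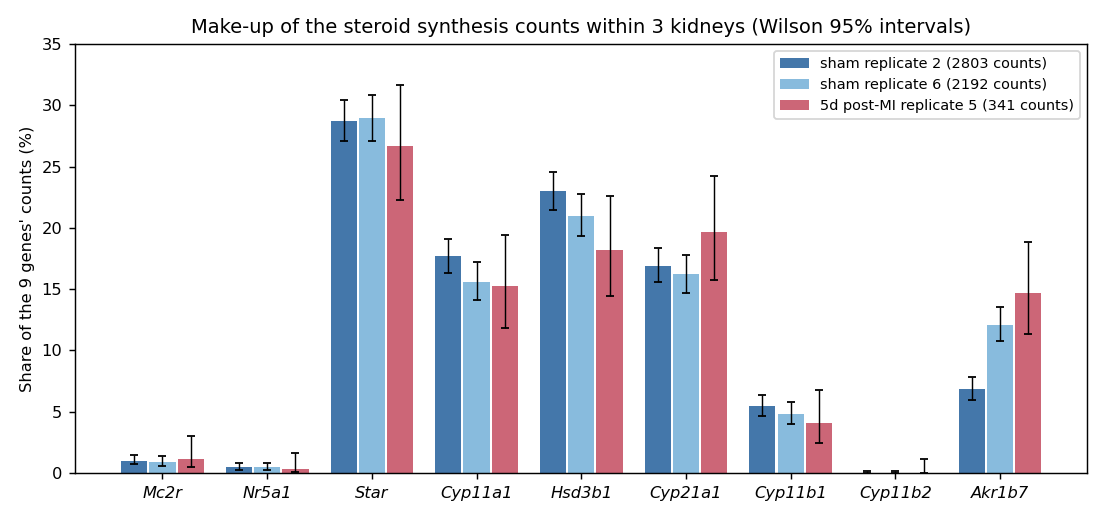
Share of each gene (x axis) in the summed counts of the 9 genes (y axis, percent) within sham replicate 2, sham replicate 6 and 5d post-MI replicate 5, with Wilson 95% intervals as error bars. Star takes 26.7 to 28.9% in each of the 3 kidneys, and the share of Akr1b7, uncorrected for its level in the other kidneys, goes from 6.81% to 14.7%.

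Between the 2 high sham kidneys, the 9 genes summed were 1.27 times higher in replicate 2 than in replicate 6 (exact 95% interval of the CPM ratio 1.2 to 1.34). Star had a ratio of 1.26 (1.13 to 1.40), Cyp11a1 of 1.43 (1.25 to 1.65), Hsd3b1 of 1.39 (1.23 to 1.57), and Cyp21a1 of 1.32 (1.15 to 1.52). Akr1b7 went the other way, with a ratio of 0.714 (0.590 to 0.863). Relative to sham replicate 2, 5d post-MI replicate 5 held 0.0951 of the summed level (0.0848 to 0.107). These ratios compare libraries and not conditions.

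Chromaffin cells of the adrenal medulla were read from a list of 12 genes. Of these, 6 that were near 0 elsewhere (Th and Dbh, which act in catecholamine synthesis, Pnmt, which makes adrenaline, and the granule proteins Chga, Chgb and Scg2) were high in only 2 of the 3 kidneys. These 6 were picked from the list after their values were seen, so the following is a description. Summed, they had 657 counts in sham replicate 2 and 545 in sham replicate 6 but 3 counts in 5d post-MI replicate 5. The other 19 kidneys had 0 to 3 counts. Th, Dbh, Pnmt and Scg2 were at 0 in 5d post-MI replicate 5. Per 100 counts of the steroid genes without Akr1b7, the chromaffin genes had 25.2 counts (exact 95% interval 23.1 to 27.4) in sham replicate 2, 28.3 (25.7 to 31.1) in sham replicate 6 and 1.03 (0.211 to 3.04) in 5d post-MI replicate 5. The intervals cover counting error only and compare single libraries.

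**Figure D3:**
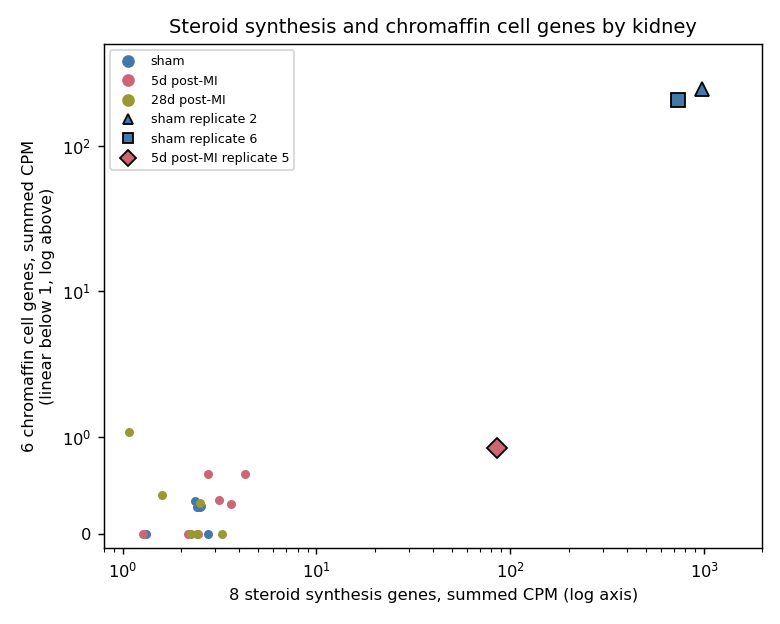
Summed CPM of the 8 steroid synthesis genes without Akr1b7 (x axis, logarithmic) against summed CPM of 6 chromaffin cell genes (y axis, linear below 1 and logarithmic above), 1 point per kidney. Sham replicates 2 and 6 are high on both axes, and 5d post-MI replicate 5, at 85.5 CPM of steroid genes, has 0.881 CPM of chromaffin genes.

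Of the remaining chromaffin genes, Slc18a1, Slc18a2 and Npy were counted in all 22 kidneys. Over the whole list, the sum was 382 and 387 CPM in sham replicates 2 and 6, 134 CPM in 5d post-MI replicate 5 and 75.9 to 168 CPM in the other 19, and 10, 12 and 5 of its 12 genes had a count in the 3 kidneys in this order. Gonadal steroid cells were read from 5 genes (Insl3, Hsd17b3, Lhcgr, Cyp17a1 and Cyp19a1), all at 0 in the 3 high kidneys and at 0 to 2 counts in sum in the other 19. Cyp17a1, which makes sex steroid precursors in the gonads, is known to be nearly silent in the adult mouse adrenal.

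Of 9 further genes linked to steroid-producing cells, Mgarp, a mitochondrial protein, followed the set with 112, 91 and 11 counts in the 3 high kidneys and at most 2 counts elsewhere. Inha, the inhibin α subunit, had 14 and 19 counts in sham replicates 2 and 6, or 5.26 and 7.20 CPM, above the 0.407 to 2.45 CPM of the other 19 kidneys, and 7 counts in 5d post-MI replicate 5. The calcium sensor Vsnl1, abundant in the aldosterone-producing zone, had 2 and 9 counts in sham replicates 2 and 6 and none in any other kidney. Nr0b1, a partner of Nr5a1, had no count in any kidney, and Agtr1b had at most 1. Hsd3b6, a close copy of Hsd3b1, did not follow the set. It had 0, 4 and 2 counts in the 3 high kidneys and 1 to 6 in each of the other 19. Mrap, which brings the ACTH receptor to the cell surface and is also made in fat, did not follow the set: it was at 12.4, 11.8 and 7.93 CPM in the 3 kidneys and at 0.866 to 19.3 CPM in the other 19. The hydroxysteroid dehydrogenase Akr1c18 did not follow the set either, at 9.14 to 34.7 CPM in the other 19 kidneys and 181 counts in the 3 together of 1524 in all.

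Fat markers did not set the 3 high kidneys apart. The white fat genes summed to 571, 474 and 465 CPM in sham replicates 2 and 6 and 5d post-MI replicate 5, ranking 4, 6 and 7 of 22 and within the range of the other 19 kidneys (78.4 to 873 CPM). The brown fat genes summed to 237, 133 and 128 CPM, ranking 3, 8 and 9 of 22 and also within the range of 1.73 to 363 CPM of the others. All 6 white fat and all 4 brown fat genes had counts in the 3 kidneys. All 8 nephron markers, such as Slc34a1 of the proximal tubule and Umod of the thick ascending limb, were counted in every kidney. How the kidneys were freed from the adrenal glands is not given in the sources used here. Whether adrenal tissue was carried over into these 3 libraries was not tested beyond the counts given here.

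**Figure D4:**
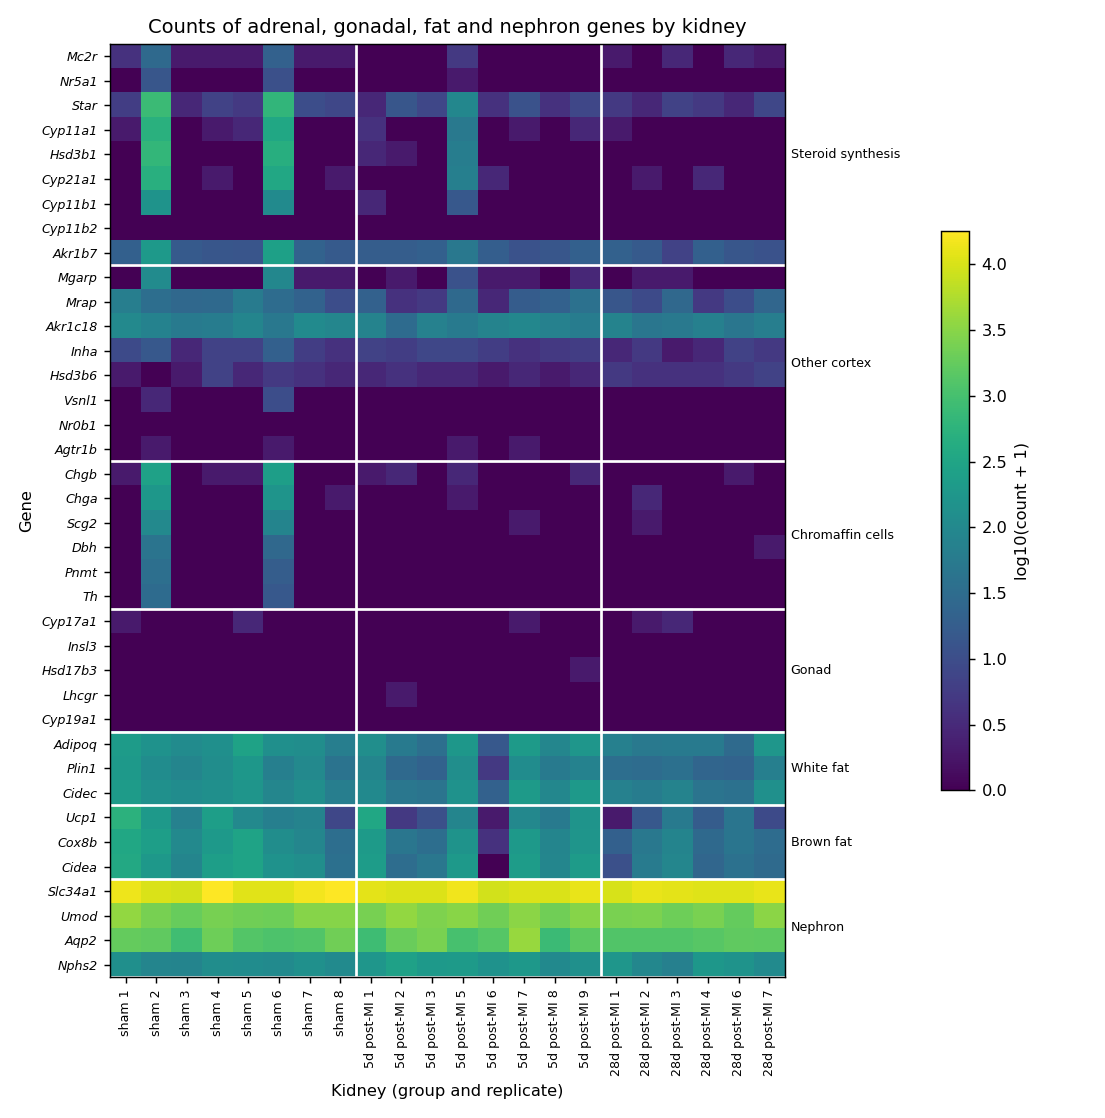
Counts of adrenal, gonadal, fat and nephron genes (y axis, grouped) in the 22 kidneys (x axis), as log10 of the count plus 1. Bright columns at sham 2 and sham 6 span the steroid synthesis and chromaffin genes, whereas 5d post-MI 5 is bright in the steroid synthesis but not in the chromaffin genes; fat and nephron genes are present in most or all kidneys.

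Several of the 9 genes were chosen because they weighed heavily on the first principal components of these kidneys. The following ranks and shares are therefore a description. Of the 9, 7 were among the 500 most variable genes, where Hsd3b1 ranked 1, Star 2, Cyp21a1 5 and Cyp11a1 6. The 7 genes together held 10.96% of the squared loadings of the first principal component, which carried 24.7% of the variance, and 8% of those of the second, which carried 21.7%. On the first component Hsd3b1 ranked 4, Cyp11a1 6, Star 7 and Cyp21a1 9 by size of loading.

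The tests of the design were run on genes that did not serve to choose the set, although their lists were also drawn up with earlier results of these data known. They were further steroid-cell genes, cholesterol supply and electron transfer genes, chromaffin genes, gonadal genes, and corticosteroid receptors and 11β-hydroxysteroid dehydrogenases. Of these, 21 passed the count filter. By list, they were 2 of 9 further steroid-cell genes, 12 of 12 supply and transfer genes, 3 of 12 chromaffin genes and 0 of 5 gonadal genes. The other 4 were the receptors and dehydrogenases. Mgarp and the 6 chromaffin genes near 0 elsewhere did not pass, so the test does not bear on them or on gonadal genes. At 5d post-MI against sham, edgeR's quasi-likelihood test called 0 of 21, beside 0.0704% of all 12780 genes. It called 0 of 21 at 28d post-MI against sham, beside 0.0235% of all genes, and 0 of 21 between 28d and 5d post-MI, beside 0.415% of all genes. At an unadjusted p under 0.05, 4, 4 and 2 of the 21 genes passed in the 3 contrasts, beside 1009, 1109 and 1156 of all 12780 genes. DESeq2 and limma's voom also called 0 in each contrast. The median log2 fold change of the 21 genes was −0.13, −0.06 and 0.04, beside 0.00018, −0.00121 and −0.00459 for all tested genes.

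Among genes that supply steroid synthesis, Scarb1, which takes up cholesterol from lipoproteins, had 155, 133 and 63 counts in sham replicate 2, sham replicate 6 and 5d post-MI replicate 5. Its CPM in the first pair, 58.2 and 50.4, lay above the 8.59 to 20.7 CPM of the other 19 kidneys, and 18.5 CPM in 5d post-MI replicate 5 lay within them. Scarb1 differed by a log2 of −0.63 (SE 0.28, edgeR adjusted p = 0.592) at 5d and −0.71 (SE 0.31, adjusted p = 0.536) at 28d post-MI against sham. Without the 3 high kidneys the values were −0.11 (SE 0.14) and −0.17 (SE 0.14). Fdxr, the reductase that feeds electrons to Cyp11a1 through Fdx1, showed the same layout, with 55.6 and 40.6 CPM in sham replicates 2 and 6 and 7.52 to 16.3 CPM in the other 19. Its log2 fold change at 5d post-MI was −0.67 (SE 0.37, edgeR adjusted p = 0.703), and 0.05 (SE 0.16) without the 3 high kidneys.

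Mrap had a log2 fold change of −1.005 (SE 0.47, edgeR adjusted p = 0.622) at 5d post-MI. Lipe, the hormone-sensitive lipase of fat and steroid cells, was at −0.66 (SE 0.25, edgeR adjusted p = 0.503) at 5d and −1.08 (SE 0.29, adjusted p = 0.246) at 28d post-MI. Lipe ranged from 23.6 to 73.2 CPM in sham kidneys, 12.6 to 45.0 CPM at 5d post-MI and 20.1 to 27.6 CPM at 28d post-MI. Of the kidneys at 28d, some lay below the sham range and the others at its low end. Fat genes had lower values at 28d post-MI against sham, with median log2 fold changes of −2.09 (brown) and −0.89 (white). At an unadjusted p under 0.05, 4 of 4 brown and 3 of 5 white fat genes passed (edgeR, none called), beside 1109 of all 12780 genes. The part of fat in the value of Lipe was not tested. Without the 3 high kidneys the value of Lipe at 28d was −1.08 (SE 0.31). Neither gene passed the test at these times in any setting that was run. The paper, using DESeq2 and 7 kidneys at 28d post-MI, names Lipe as its most downregulated gene. Of those kidneys, 6 were used here.

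On the receiving side of these hormones, all 4 genes were counted in every kidney and none passed the test. The mineralocorticoid receptor Nr3c2 ranged from 4.17 to 8.36 CPM in sham kidneys and 6.66 to 10.2 CPM at 5d post-MI, with a log2 fold change of 0.50 (SE 0.17, edgeR adjusted p = 0.425). Hsd11b1, which regenerates active glucocorticoid, ranged from 91.0 to 202 CPM in sham kidneys, 77.1 to 153 CPM at 5d and 162 to 218 CPM at 28d post-MI. Its log2 difference between 28d and 5d post-MI was 0.56 (SE 0.16, edgeR adjusted p = 0.200). The glucocorticoid receptor Nr3c1 ranged from 52.2 to 92.8 CPM over the kidneys outside the 3 high ones. Hsd11b2, which inactivates glucocorticoid in aldosterone-responsive cells, ranged from 133 to 214 CPM over the same kidneys.

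Of the close copies of Hsd3b1, Gm4450 (chr3:98445675-98457126, minus strand, GRCm38) was the 1 gene called, higher at 5d post-MI with a log2 fold change of 0.40 (SE 0.08, edgeR adjusted p = 0.0423). The call was lost without the 3 high kidneys (0.39, SE 0.09, adjusted p = 0.232), but it was also kept in only 4 of 22 fits that left out any 1 kidney. Gm4450 has close copies nearby such as Hsd3b4, so that its counts are uncertain. Hsd3b4 itself did not pass, at 0.48 (SE 0.11, edgeR adjusted p = 0.128).

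Genes past the count filter whose log2 CPM was most like the mean of the 9 genes over the 22 kidneys were ranked by Pearson's r, given as a description, since the same 3 kidneys set most of each value. The imprinted RNA Meg3 ranked first (r = 0.919), with 305, 291 and 50 counts in sham replicates 2 and 6 and 5d post-MI replicate 5 and 8 to 43 elsewhere. The steroid 5α-reductase Srd5a2 came next (r = 0.896), with 127, 90 and 30 counts and 8 to 30 elsewhere, followed by Fdxr (r = 0.871) and Scarb1 (r = 0.843). Ranks 5 to 10 were taken by Slc27a3, St3gal5, Tbx3os1, Cacna2d1, Emp3 and Tmem35a, and the mitochondrial ferredoxin Fdx1 ranked 11 (r = 0.754). The remainder of the first 20 were Kcnk3, Fez2, Slc41a3, Pla2g5, Ccnd2, Fads2, Mrfap1, Polr1c and Pbx3. In the 8 sham kidneys alone, 9 of these 20 genes were again among the first 20, and with ranks in place of values (Spearman) 0 were.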

How the data were processed

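Kidney RNA was sequenced by MACE with unique molecular identifiers. Per the paper's methods and the submitters' processing notes, the authors trimmed reads with Cutadapt, mapped them (Bowtie2) and counted them with HTSeq. The genome is named mm10 in the one source and mm39 in the other, and annotation and strand setting are not given in the sources used here. The deposited table holds raw whole-number counts of 56941 genes, without normalization. The deposited values named tpm are CPM of each kidney's total (largest difference 5e-06) and are not divided by gene length.

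Of 48 value columns, 44 were used. The other 4 share a column name between 1 kidney at 5d and 1 at 28d post-MI and could not be assigned, leaving 22 of 24 kidneys. Total counts were between 2280618 and 3786275 per kidney. Within groups, the 71 pairs of kidneys differed by a chi-squared per degree of freedom of 1.77 to 8.10, so none was taken as 1 library deposited again. Symbols and positions came from GENCODE M21 (GRCm38), which held 51948 of the identifiers; the files give no coordinates.

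Counts were fitted in R 4.3.3 by edgeR 4.0.16 (TMM, filterByExpr with a minimum of 10 counts, robust quasi-likelihood F test, two-sided, 3 groups, no covariate, called at a Benjamini-Hochberg adjusted p under 0.05), tested on simulated data beforehand. CPM are on TMM library sizes, and log2 CPM use a prior count of 2. Standard errors are the log2 fold change over the root of F. Alternatives used DESeq2 1.42.0, limma 3.58.1 (voom), RLE size factors, no filter, other prior counts, 2 groups only, a replicate block and leaving out kidneys. The alternative without sham replicates 2 and 6 and 5d post-MI replicate 5, and the ranking of genes with at least 10 counts in any kidney, were chosen after seeing the data. Python 3.11.15 with scipy 1.17.1 gave intervals and matplotlib 3.10.9 the plots.

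The genes described and all lists were chosen with earlier results of these data known. Named are the 9 genes, the 20 genes most like their mean by Pearson's r, and genes from the lists. For each list the plan was to name the called genes or otherwise up to 4 with the highest mean CPM. This was not followed in full, Por and Tspo being among those left out. List genes beyond the plan were named after their values were seen. The result of 1 listed gene is not reported here.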

Additional observations from a re-analysis of the deposited data

Results flagged for a closer look

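Within groups of 6 to 8 kidneys, 9 of 21 pairs of gene and group had 1 kidney far from the others by Dixon's criterion. The criterion marks about 1 in 20 groups by chance, but these genes were chosen for standing apart in some of these kidneys and vary together, so the number of pairs is a description and is not read against that rate. Of these, 8 were 5d post-MI replicate 5, where Mc2r was at 1.18 CPM, Nr5a1 at 0.294 CPM (1 count), Star at 26.7 CPM, Cyp11a1 at 15.3 CPM, Hsd3b1 at 18.2 CPM, Cyp21a1 at 19.7 CPM, Cyp11b1 at 4.11 CPM and Akr1b7 at 14.7 CPM. The other was Cyp11a1 in 28d post-MI replicate 1, at 0.402 CPM, which was 1 count against 0 in the remaining kidneys of that group. No sham kidney met the criterion, because sham replicates 2 and 6 were high together.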

How the results depend on the processing

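Counts of called genes depended on the settings, and the cause was not tested. At 5d post-MI against sham, 9 genes were called, and 36 with DESeq2, 22 with voom, 80 with no filter, 2 with a replicate block, 2 with 2 groups only and 2 without the 3 high kidneys, of which 1 was among the 9. At 28d against sham, 3 were called, and 33, 11, 94, 24, 31 and 1 in the same order. Between 28d and 5d post-MI, 53 were called, and 91 with DESeq2, 160 with no filter, 80 with the block and 26 with 2 groups only. Leaving out 1 kidney gave 1 (sham replicate 2, among others) to 38 calls (5d post-MI replicate 1), 0 (28d post-MI replicate 2) to 29 (sham replicate 8), and 41 (5d post-MI replicate 2) to 84 (5d post-MI replicate 1), and 4, 9 and 21 of these 22 counts lay within 1.5 times the count from all kidneys. Of the 21 genes outside the set, none was called in any contrast when any 1 kidney was left out (0 to 0), and with the replicate block 1 was called between 28d and 5d post-MI, Slc18a1, at a log2 of 0.48 (edgeR adjusted p = 0.0492). Replicate numbers did not pair the kidneys: over 18 pairs, deviations correlated at −0.127 to 0.0900, none above 0.1. For the mean log2 CPM of the 9 genes no block was fitted. Differences between kidneys of the same replicate number were averaged, and kidneys without such a partner were left out. This gave −1.09 at 5d and −1.75 at 28d post-MI against sham.

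That mean differed by −0.95 at 5d and −1.32 at 28d post-MI, with a range of −1.27 to −0.38 and of −1.51 to −0.74 on leaving out 1 kidney, the upper end in both without sham replicate 2. Akr1b7 at 5d post-MI was at −0.95 with DESeq2 and −0.47 with voom. Fdxr at 5d post-MI turned to 0.0517 without the 3 high kidneys. Gm4450 lost its call with the block (adjusted p = 0.138), with 2 groups only (0.146) and without the 3 high kidneys. It kept the call with DESeq2, voom, RLE size factors and no filter, and in 4 of 22 fits that left out 1 kidney. Its log2 fold change was between 0.37 and 0.45 in all of these fits. Of the 20 genes most like the set, 2 were among the first 20 when genes with at least 10 counts in any kidney were ranked. At these depths a gene with 0 counts may be present at up to 1.32 CPM.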

Other observations

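A screen of 14515 genes with at least 10 counts in some kidney found 23 that stood at 4 times the highest of the other 19 kidneys or more (or of the level of 3 counts, where that was higher) in both sham replicate 2 and sham replicate 6. They include 7 of the 9 steroid synthesis genes and 6 genes of the chromaffin list. Beside these, the aldo-keto reductase Akr1cl had 170, 138 and 25 counts in sham replicates 2 and 6 and 5d post-MI replicate 5 and at most 3 elsewhere. The efflux pump gene Abcb1b had 162, 94 and 21 counts and at most 17 elsewhere. Dlk1, an imprinted gene near Meg3, had 55, 50 and 4 counts and at most 5 elsewhere, and the potassium channel gene Kcnk9 had 18, 21 and 2 counts and 0 elsewhere. Of the 23 genes, 11 were also above the higher of these levels in 5d post-MI replicate 5, and 12 were not. By the same factor of 4, 5 genes stood out in 5d post-MI replicate 5 itself: Star, Hsd3b1, Cyp11a1, Cyp21a1 and Akr1cl. These genes were chosen for their height in these kidneys, and no test was made of them.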
